A study of Mus musculus with 8 samples.

Results

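The 37 genes described here encode enzymes, membrane proteins and regulators of the lysosome. They were taken by symbol from a list drawn up by function: 9 cathepsins, 14 glycosidases and sulfatases, 5 enzymes or cofactors of lipid breakdown, 5 membrane proteins, 2 transcription factors, and a pair made of the peptidase Tpp1 and progranulin (Grn). The 37 genes and the other lists below were chosen with earlier results of these data known. Their counts beside those of all genes are therefore descriptions, not tests. All 37 were found among the 55414 genes of the deposited table, and all 37 passed the filter on low values, a mean of at least 1 FPKM (sequenced fragments normalised for transcript length and for the mapped fragments of the library) over the samples. The study measured total RNA of mouse testis by RNA sequencing in 4 samples labelled valine and 4 labelled control. Valine is an essential branched-chain amino acid. The sources used here do not give the dose, route or duration of the valine treatment, what the controls received, or the strain, genotype and age of the mice. They also do not say whether the samples are separate animals, so the p-values measure only sample-to-sample spread, which may be technical. Every value compares valine samples with control samples on FPKM, which is per transcript length, so levels may be set side by side between genes.

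Lysosomes are acidic compartments in which hydrolases break down proteins, glycans and lipids delivered by endocytosis, phagocytosis and autophagy. Their enzymes are made as precursors, tagged with mannose-6-phosphate and sorted from the Golgi, and many of their genes are regulated by the transcription factors TFEB and TFE3, which bind a promoter motif known as the CLEAR element and are held in the cytoplasm when mTORC1, an amino acid sensing kinase complex, is active. In the testis, Sertoli cells digest the residual bodies shed by spermatids, macrophages and Leydig cells of the interstitium are rich in lysosomes, and the acrosome of the sperm is a related acidic organelle that holds several of the same hydrolases.

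Of the 37 lysosomal genes, 14 fell with valine, none rose and 23 did not pass the test (limma on log2(FPKM + 1), Benjamini-Hochberg adjusted p under 0.05 over 22077 tested genes). At an unadjusted limma p under 0.05, 21 were lower and none higher. For counts at this unadjusted limit, here and below, the share of all tested genes was not derived. The genes that fell were 6 cathepsins, 5 glycosidases or sulfatases, the lipid genes Psap and Asah1, and progranulin. Among all tested genes, 4.41% were called lower and 4.32% higher, against 37.84% and 0 of the lysosomal genes. The median log2 change was -0.40 over the 37 genes, against 0.02 over all tested genes, and 30 of the 37 changes were negative (81.08%, against 46.39% of all tested genes). With every sample scaled to the same FPKM total, 5 of the 7 positive changes turned negative. In 18 of the 37 genes (48.65%) every valine sample was below every control sample, a pattern found in 9.39% of all tested genes. The 18 comprised 13 of the 14 genes that fell, all but Ctsz, and 5 that missed the threshold: Ctsa, Sgsh, Gla, Tpp1 and Lamp2.

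**Figure D1:**
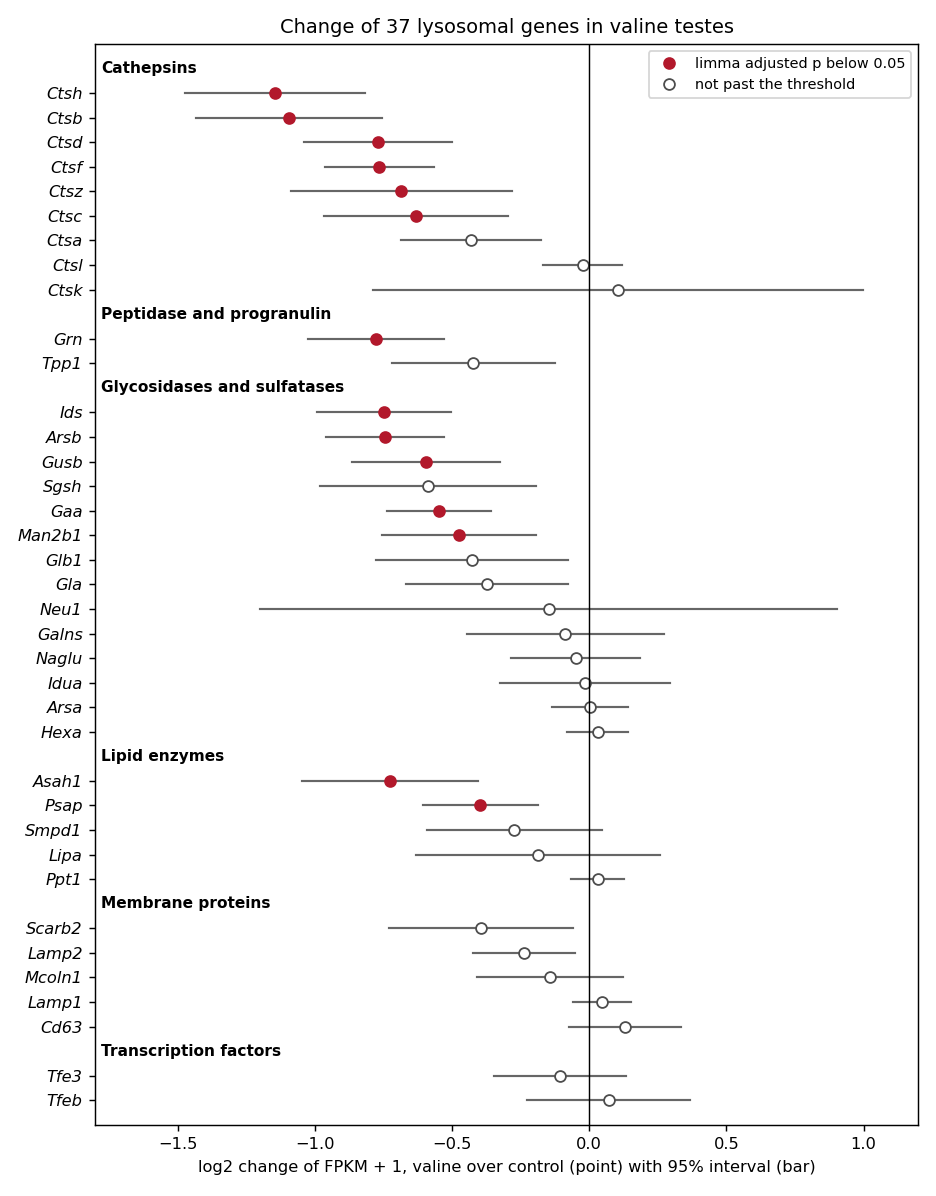
Change of each of the 37 lysosomal genes, valine over control, as the log2 difference of FPKM + 1 with its 95% confidence interval (x axis), grouped by role. Filled points passed a limma adjusted p of 0.05. The filled points lie among the cathepsins, glycosidases and sulfatases, lipid genes and progranulin, between -1.15 (Ctsh) and -0.40 (Psap), and no membrane protein or transcription factor is filled.

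With 1 library left out, the count of 14 became 8 to 15. Over all tested genes, the 974 lower calls dropped to between 454 and 793 in the same fits. The lysosomal count was 8 without control replicate 1, where 2.06% of all tested genes were called lower, and 9 without valine replicate 1, where 2.24% were. Control replicate 1 stood apart in markers of fat, with a summed level of 94.0 FPKM, against 32.1 to 42.3 FPKM in the other controls and 34.1 to 41.7 FPKM in the valine samples. Of these sums, Adipoq alone gave 30.0 to 38.6 FPKM in valine samples and 27.2 to 34.9 FPKM in control samples. Whether the fat markers bear on the lysosomal calls was not tested. A core of 8 genes passed in each of the 16 alternative analyses that tested them, namely Ctsb, Ctsd, Ctsf, Ctsh, Gaa, Ids, Arsb and Grn. The other 6 lost the call in at least 1 analysis. Losses with a library left out are given with their role below. With all libraries kept, Man2b1 lost it without the filter on low values and under quantile normalisation, length trend removal, sample weights and a replicate block. Ctsz lost it without the filter, with a pseudocount of 0.1, with quantile normalisation and with sample weights. Ctsc and Psap each lost it without the filter and again with the block, and Ctsc also with the length trend removed. Gusb lost it with the block. The deposited FPKM totals of the valine samples, 1027662 to 1070524, were all above those of the control samples, 944659 to 974626. Scaling the samples to equal totals shifted the all-gene median log2 change by -0.10, and 18 lysosomal genes, the 14 among them, were then lower, against 9.16% of all tested genes. With quantile normalisation 12 of the 14 were lower, against 4.66% of all genes, and with the trend of level on exon length removed in each sample 12 of the 14 were lower, against 3.02%.

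The levels of the 37 genes spanned a wide range, and a few genes carried most of the signal. In control samples Lamp1 was the highest at 379.6 ± 16.5 FPKM (SD, n = 4), followed by Psap, Arsa, Ppt1, Hexa and Ctsl, and the lowest was Ctsk at 0.922 ± 0.741 FPKM. Those 6 highest genes held 76.64% to 83.39% of the summed FPKM of the 37 in each sample. Of the 6, Psap fell and the other 5 did not pass the test. Neighbouring ranks were not all separated: in control samples Ctsd at 35.1 ± 4.51 FPKM and Naglu at 34.6 ± 2.58 FPKM lay within each other's spread, and the values of Arsa, at 137.8 ± 8.92 FPKM, overlapped those of Ppt1, at 129.2 ± 2.88 FPKM. The summed level of the 37 genes was 1209 to 1260 FPKM in valine samples and 1270 to 1416 FPKM in control samples, so the groups did not overlap in the sum, although 5 of its 6 largest parts did not pass the test.

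**Figure D2:**
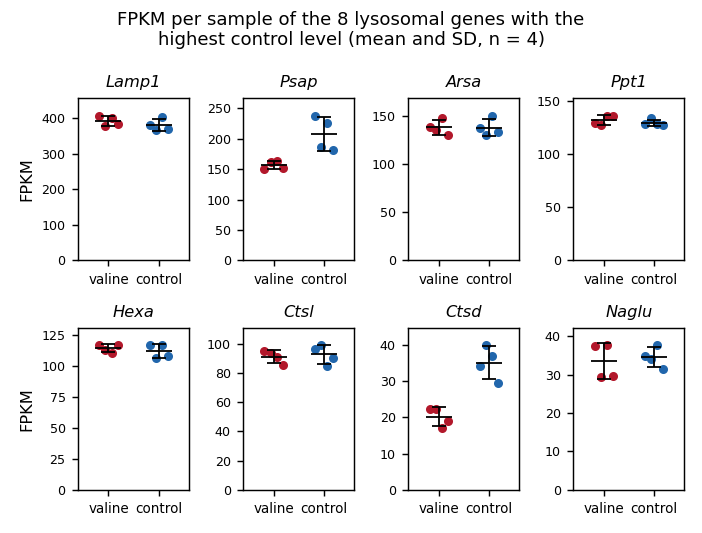
FPKM of the 8 lysosomal genes with the highest control level in each valine and control sample (points), with mean and SD (bars, n = 4 each), each panel on its own linear axis from 0. Psap and Ctsd are lower in all 4 valine samples, and the other 6 genes overlap between the groups.

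**Figure D3:**
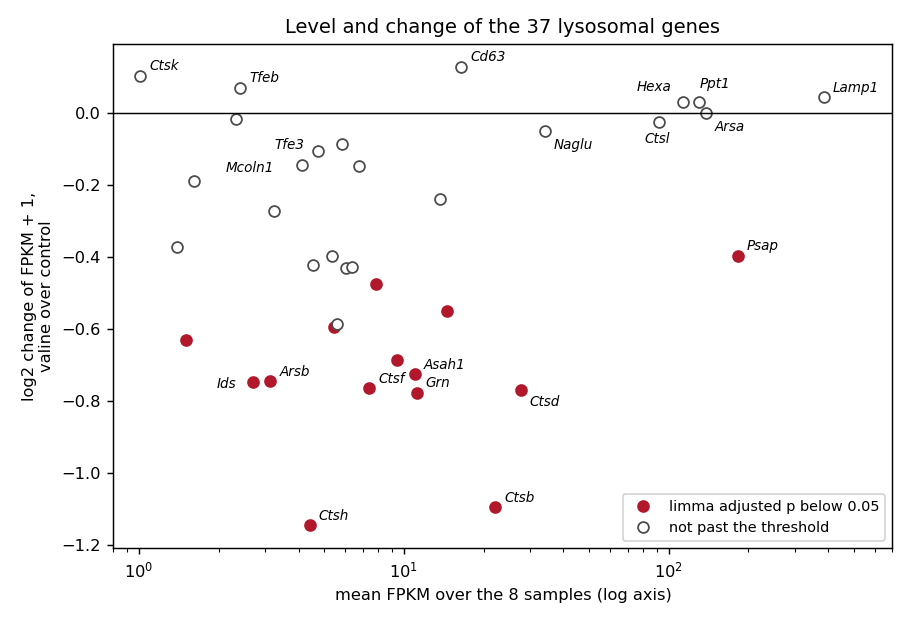
Mean FPKM over the 8 samples (x axis, log scale) against the log2 change of FPKM + 1, valine over control (y axis), for the 37 lysosomal genes. Filled points passed a limma adjusted p of 0.05. They spread from about the level of Ctsc to that of Psap, and 5 of the 6 genes with the highest control level lie near 0.

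Level and length ranked the changes of the 37 genes only weakly. Across the 37 genes Spearman's rho between mean FPKM and log2 change was 0.099, against 0.181 across all tested genes, and between exon length and log2 change it was -0.15, against -0.339. These are descriptions across genes measured in the same libraries. The exon length, which counts each base of a gene's annotated exons once, ran from 1441 to 9552 bases in the 37 genes.

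The promoter windows of some of these genes are printed because TFEB and TFE3 are known to regulate lysosomal genes as a class. A part of either factor in the changes of these genes was not tested. A window runs from 250 bases before to 50 after the annotated start, in RefSeq for assembly GRCm38.p6, an older assembly than the one the reads were aligned to, and 33 of the 37 genes had one (all but Asah1, Ctsb, Ctsh and Galns). The 6-letter motif CACGTG, which reads the same on both strands, was searched, and so was the 8-letter motif TCACGTGA, the centre of the CLEAR element, which contains it and also reads the same on both strands. The first was in 12 of the 33 genes (36.36%), against 8.093% of 27025 genes in the table, and the second in 4 of 33 (12.12%), namely Ctsa, Ctsd, Gla and Mcoln1, against 1.125%. Among the genes with a window, CACGTG was in 3 of the 11 that fell (Ctsd, Ctsf and Gaa) and in 9 of the 22 that did not pass the test (Arsa, Ctsa, Ctsl, Gla, Glb1, Lamp1, Mcoln1, Naglu and Sgsh). Asah1, Ctsb and Ctsh fell but had no window, and Ctsh and Ctsb showed the largest falls of the 37 genes. Ctsa, Gla and Sgsh did not pass, yet every valine sample was below every control sample. A match is a run of letters, not a binding site. Shown are the 3 genes that fell with a match, then the Lamp1 window with 4 copies, and Mcoln1 and Ctsa, which hold the longer motif. Capitals mark TCACGTGA where all 8 letters match and CACGTG elsewhere.
Ctsd (chr7:142387778-142388077, GRCm38.p6, minus strand): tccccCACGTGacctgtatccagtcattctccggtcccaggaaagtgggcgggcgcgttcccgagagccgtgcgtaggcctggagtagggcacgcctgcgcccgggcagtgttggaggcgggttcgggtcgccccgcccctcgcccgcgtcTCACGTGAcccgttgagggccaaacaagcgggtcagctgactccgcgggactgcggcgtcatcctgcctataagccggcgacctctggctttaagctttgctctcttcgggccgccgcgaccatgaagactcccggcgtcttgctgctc
Gaa (chr11:119267713-119268012, GRCm38.p6, plus strand): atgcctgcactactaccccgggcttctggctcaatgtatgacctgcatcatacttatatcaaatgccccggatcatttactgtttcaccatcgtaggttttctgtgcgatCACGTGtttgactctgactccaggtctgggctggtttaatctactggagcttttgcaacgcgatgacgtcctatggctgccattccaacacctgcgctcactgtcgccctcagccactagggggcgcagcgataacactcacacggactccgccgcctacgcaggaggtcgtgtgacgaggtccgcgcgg
Ctsf (chr19:4854915-4855214, GRCm38.p6, plus strand): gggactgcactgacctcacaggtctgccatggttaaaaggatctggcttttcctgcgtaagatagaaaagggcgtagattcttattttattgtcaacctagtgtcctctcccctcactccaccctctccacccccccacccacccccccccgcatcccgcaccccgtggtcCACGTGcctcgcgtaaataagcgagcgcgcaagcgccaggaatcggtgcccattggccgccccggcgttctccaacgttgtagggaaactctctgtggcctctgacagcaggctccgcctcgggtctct
Lamp1 (chr8:13158911-13159210, GRCm38.p6, plus strand): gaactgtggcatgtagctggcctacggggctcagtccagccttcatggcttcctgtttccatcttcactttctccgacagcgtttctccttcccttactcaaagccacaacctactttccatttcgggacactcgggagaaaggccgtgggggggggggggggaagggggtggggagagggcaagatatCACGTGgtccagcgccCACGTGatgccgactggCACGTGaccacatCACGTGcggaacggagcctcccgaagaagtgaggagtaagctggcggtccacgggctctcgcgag
Mcoln1 (chr8:3500269-3500568, GRCm38.p6, plus strand): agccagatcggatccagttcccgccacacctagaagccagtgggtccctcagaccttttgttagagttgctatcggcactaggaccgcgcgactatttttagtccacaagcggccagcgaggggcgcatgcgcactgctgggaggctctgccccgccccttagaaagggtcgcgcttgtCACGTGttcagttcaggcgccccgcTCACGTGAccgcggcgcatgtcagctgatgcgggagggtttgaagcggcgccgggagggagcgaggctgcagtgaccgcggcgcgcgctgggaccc
Ctsa (chr2:164833523-164833822, GRCm38.p6, plus strand): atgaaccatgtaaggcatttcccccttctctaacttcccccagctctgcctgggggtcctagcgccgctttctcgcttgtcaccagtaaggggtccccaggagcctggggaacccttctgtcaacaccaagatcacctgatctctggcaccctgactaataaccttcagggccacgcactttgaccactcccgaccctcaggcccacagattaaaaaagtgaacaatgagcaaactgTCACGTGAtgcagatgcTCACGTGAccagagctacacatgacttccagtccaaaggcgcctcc
Counted from the first letter of CACGTG, inside the longer motif where there is one, the matches of Ctsd begin 245 and 98 bases before the start, the second of them within TCACGTGA. The match in Gaa begins 140 bases before the start and that in Ctsf 79 bases before. All 4 copies in Lamp1 begin between 61 and 15 bases before the start, and those of Mcoln1 begin 71 and 45 bases before. The first copy in Ctsa begins 12 bases before the start and the second just after it. Ctsd, Gaa and Ctsf fell with valine. The other 3 genes shown did not pass the test.

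Cathepsins are the lysosomal proteases, and 6 of the 9 fell, with a median log2 change of -0.68 over the 9. Ctsh (ENSMUSG00000032359) encodes an aminopeptidase of the papain family and showed the largest change of the 37 genes. It was at 2.48, 2.58, 2.45 and 1.90 FPKM in valine samples and at 6.43, 7.79, 6.88 and 4.796 FPKM in control samples. Every valine sample was below every control sample. The mean was 2.35 ± 0.309 FPKM with valine and 6.47 ± 1.25 FPKM in controls (SD, n = 4 each), and log2(FPKM + 1) fell by 1.15 (SE 0.144, limma adjusted p = 0.00466). Ctsb (ENSMUSG00000021939), a cysteine protease that acts as both an endopeptidase and a carboxypeptidase, was at 14.8, 12.3, 15.5 and 12.1 FPKM in valine samples and at 31.4, 34.6, 34.1 and 22.3 FPKM in control samples. Control replicate 4 was the lowest control and still above all 4 valine samples. The log2 value fell by 1.09 (SE 0.148, limma adjusted p = 0.00592), with means of 13.7 ± 1.72 FPKM with valine and 30.6 ± 5.74 FPKM in controls.

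Ctsd (ENSMUSG00000007891), the main aspartic protease of the lysosome and the carrier of both motifs printed above, was at 22.3, 22.3, 17.0 and 19.1 FPKM in valine samples, against 34.1, 40.0, 36.8 and 29.3 FPKM in control samples. The groups did not overlap. It fell by 0.77 on the log2 scale (SE 0.118, limma adjusted p = 0.00862), with means of 20.2 ± 2.61 FPKM with valine and 35.1 ± 4.51 FPKM in controls. Ctsf (ENSMUSG00000083282), a papain-family protease, was at 5.64, 5.28, 4.85 and 5.08 FPKM in valine samples and at 9.69, 9.24, 10.7 and 8.64 FPKM in control samples. The spread within both groups was small beside the gap between them. Its log2 change was -0.76 (SE 0.0870, limma adjusted p = 0.00362), with means of 5.21 ± 0.337 FPKM with valine and 9.57 ± 0.879 FPKM in controls.

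Ctsz and Ctsc passed the threshold less firmly. Ctsz (ENSMUSG00000016256), a carboxypeptidase, was at 6.79, 10.01, 6.38 and 5.08 FPKM in valine samples and at 12.5, 12.8, 12.02 and 9.61 FPKM in control samples. Valine replicate 2 lay above control replicate 4, the only overlap among the 14 genes that fell. The log2 change of Ctsz was -0.68 (SE 0.177, limma adjusted p = 0.0492), with means of 7.06 ± 2.10 FPKM with valine and 11.7 ± 1.44 FPKM in controls. It lost the call when any library other than valine replicate 2 was left out, with an adjusted p in limma of up to 0.120. Ctsc (ENSMUSG00000030560), the dipeptidyl peptidase that activates serine proteases of immune cell granules, was at 0.933, 0.964, 1.06 and 0.863 FPKM in valine samples and at 2.65, 2.29, 1.71 and 1.58 FPKM in control samples. All valine samples were below all control samples, at a low level in both groups. Its log2 value fell by 0.63 (SE 0.147, limma adjusted p = 0.0352), with means of 0.956 ± 0.0831 FPKM with valine and 2.06 ± 0.501 FPKM in controls, and the call was lost without any 1 valine library, control replicate 1 or control replicate 2, with adjusted p in limma of up to 0.0926.

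The other 3 cathepsins did not pass. Ctsl (ENSMUSG00000021477), a cysteine protease that rat Sertoli cells secrete, was the most abundant cathepsin. It was at 95.2, 94.0, 90.8 and 85.2 FPKM in valine samples and at 96.7, 99.3, 84.9 and 90.7 FPKM in control samples. The groups overlapped over their whole range, and the log2 change was -0.02 (95% confidence interval -0.17 to 0.12, limma adjusted p = 0.858). Ctsa, the carboxypeptidase that protects beta-galactosidase and neuraminidase in a complex, averaged 5.01 ± 0.741 FPKM with valine and 7.08 ± 0.711 FPKM in controls. Its groups did not overlap, its log2 change of -0.43 just missed the threshold (limma adjusted p = 0.0503), and it passed without valine replicate 2 (adjusted p = 0.0347 in limma) and without control replicate 4 (adjusted p = 0.0492 in limma). Ctsk, best known as the collagenase of osteoclasts, scattered from 0.1 to 2.17 FPKM in valine samples and from 0.0860 to 1.78 FPKM in control samples.

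Among the 14 glycosidases and sulfatases, which remove sugars and sulfate groups from glycans and glycolipids in sequence, 5 fell and the median log2 change was -0.40. Ids (ENSMUSG00000035847), the sulfatase that opens the breakdown of heparan and dermatan sulfate, was at 1.86, 1.68, 1.80 and 1.67 FPKM in valine samples and at 4.16, 3.76, 3.45 and 3.16 FPKM in control samples. The lowest control lay well above the highest valine sample. It fell by 0.75 on the log2 scale (SE 0.107, limma adjusted p = 0.00688), with means of 1.75 ± 0.0935 FPKM with valine and 3.63 ± 0.429 FPKM in controls. Arsb (ENSMUSG00000042082), a sulfatase of dermatan and chondroitin sulfate, was at 2.17, 2.09, 1.87 and 2.22 FPKM in valine samples and at 4.34, 4.24, 4.29 and 3.82 FPKM in control samples. Both groups were tight and apart. The log2 change was -0.74 (SE 0.0938, limma adjusted p = 0.00466), with means of 2.09 ± 0.154 FPKM with valine and 4.17 ± 0.241 FPKM in controls.

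Gusb (ENSMUSG00000025534), beta-glucuronidase, was at 4.24, 3.94, 3.29 and 5.06 FPKM in valine samples and at 7.33, 6.22, 6.87 and 6.41 FPKM in control samples, with no overlap. Its log2 value fell by 0.60 (SE 0.118, limma adjusted p = 0.0201), with means of 4.13 ± 0.734 FPKM with valine and 6.71 ± 0.497 FPKM in controls. This call was lost without valine replicate 1, valine replicate 2 or control replicate 1, with an adjusted p in limma of up to 0.0633. Gaa (ENSMUSG00000025579), the acid alpha-glucosidase that degrades glycogen, held a nearly constant level with valine. It was at 11.6, 11.8, 11.7 and 11.3 FPKM in valine samples and at 20.3, 16.6, 17.3 and 15.7 FPKM in control samples. It fell by 0.55 (SE 0.0828, limma adjusted p = 0.00823), with means of 11.6 ± 0.208 FPKM with valine and 17.5 ± 2.004 FPKM in controls. Man2b1 (ENSMUSG00000005142), the lysosomal alpha-mannosidase, was at 7.45, 6.94, 5.57 and 5.69 FPKM in valine samples and at 10.5, 8.73, 10.1 and 7.85 FPKM in control samples. The groups did not overlap, but valine replicate 1 and control replicate 4 lay close together. Its log2 value fell by 0.48 (SE 0.123, limma adjusted p = 0.0489), with means of 6.41 ± 0.929 FPKM with valine and 9.30 ± 1.24 FPKM in controls, and the call was lost when any library other than control replicate 4 was left out, with adjusted p in limma of up to 0.122.

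The most abundant enzymes of this role did not pass. Arsa (ENSMUSG00000022620) encodes arylsulfatase A, which desulfates sulfatide and is also known from the acrosome of mammalian sperm. It was at 138.0, 135.5, 147.9 and 130.05 FPKM in valine samples and at 137.8, 129.95, 150.2 and 133.1 FPKM in control samples. The means of the groups were nearly equal, and the log2 change was 0.00 (95% confidence interval -0.14 to 0.14, SE 0.0606, limma adjusted p = 0.990). Hexa, the alpha chain of beta-hexosaminidase, averaged 114.6 ± 3.05 FPKM with valine and 112.2 ± 5.49 FPKM in controls, with a log2 change of 0.03 (95% confidence interval -0.08 to 0.14) that became -0.09 with equal totals. Naglu, which cleaves N-acetylglucosamine from heparan sulfate, averaged 33.5 ± 4.67 FPKM with valine and 34.6 ± 2.58 FPKM in controls.

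Among the other 6 that missed the threshold, Sgsh, Gla and Glb1 had the most negative changes. Sgsh, the sulfamidase of heparan sulfate, averaged 4.31 ± 1.21 FPKM with valine and 6.86 ± 0.972 FPKM in controls (log2 change -0.59, limma adjusted p = 0.0725), and passed without valine replicate 3 (adjusted p = 0.0389 in limma). Gla, alpha-galactosidase, averaged 1.09 ± 0.206 FPKM with valine and 1.70 ± 0.173 FPKM in controls. In both Sgsh and Gla the groups did not overlap. Glb1, beta-galactosidase, was at 4.65, 4.98, 4.24 and 7.48 FPKM in valine samples and at 7.58, 7.42, 8.07 and 6.51 FPKM in control samples. Valine replicate 4 stood among the controls, and without it Glb1 passed (log2 change -0.58, adjusted p = 0.0255 in limma). Idua, Galns and Neu1 had changes of -0.02, -0.09 and -0.15. Neu1, the sialidase, varied most within groups, from 2.33 to 10.02 FPKM in valine samples and from 2.26 to 9.84 FPKM in control samples.

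The lipid group held both a gene that fell at a high level and one that did not pass at a similar level. Psap (ENSMUSG00000004207), the precursor of the saposins that present lipids to hydrolases and a protein that rat Sertoli cells also secrete, was at 149.6, 161.7, 163.0 and 152.3 FPKM in valine samples and at 237.7, 186.4, 225.7 and 181.2 FPKM in control samples. The groups did not overlap, and the controls were the more scattered. Psap averaged 156.7 ± 6.68 FPKM with valine and 207.8 ± 28.2 FPKM in controls, and fell by 0.40 on the log2 scale (SE 0.0921, limma adjusted p = 0.0346). That call was lost without any 1 valine library, control replicate 1 or control replicate 3, with an adjusted p in limma of up to 0.0934. Asah1 (ENSMUSG00000031591), acid ceramidase, was at 9.28, 7.44, 7.44 and 7.83 FPKM in valine samples and at 14.7, 17.9, 11.97 and 11.6 FPKM in control samples, without overlap. It averaged 7.998 ± 0.875 FPKM with valine and 14.03 ± 2.95 FPKM in controls, fell by 0.73 (SE 0.141, limma adjusted p = 0.0186), and lost the call without valine replicate 2 (adjusted p = 0.0512 in limma) or control replicate 1 (adjusted p = 0.0592 in limma).

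Ppt1, the thioesterase that removes palmitate from proteins, averaged 132.1 ± 4.60 FPKM with valine and 129.2 ± 2.88 FPKM in controls, with a log2 change of 0.03 (95% confidence interval -0.07 to 0.13) that became -0.09 with equal totals. Smpd1, acid sphingomyelinase, averaged 2.84 ± 0.514 FPKM with valine and 3.63 ± 0.579 FPKM in controls (log2 change -0.27, limma adjusted p = 0.264). Lipa, the acid lipase of cholesteryl esters, was at 1.87, 1.03, 1.86 and 1.02 FPKM in valine samples and at 2.31, 1.39, 2.12 and 1.296 FPKM in control samples. Replicates 1 and 3 were the higher samples in both groups, and the groups overlapped.

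None of the 5 membrane proteins passed the test in limma, and 2 of them, Lamp2 and Scarb2, were lower at an unadjusted p under 0.05. Lamp1 (ENSMUSG00000031447), the abundant glycoprotein that lines the lysosomal membrane, was at 406.7, 376.6, 400.9 and 382.4 FPKM in valine samples and at 379.7, 366.1, 402.8 and 369.9 FPKM in control samples. The groups overlapped. Its log2 change was 0.05 (95% confidence interval -0.06 to 0.15, SE 0.0463, limma adjusted p = 0.590) and became -0.07 with equal totals. Lamp2, its paralog with a role in fusion with autophagosomes, averaged 12.4 ± 1.072 FPKM with valine and 14.9 ± 0.944 FPKM in controls. Its groups did not overlap, with a log2 change of -0.24 (limma adjusted p = 0.107), and it passed with equal totals (adjusted p = 0.0332 in limma). Scarb2, the receptor that carries glucocerebrosidase to lysosomes, averaged 4.51 ± 0.915 FPKM with valine and 6.22 ± 0.934 FPKM in controls (log2 change -0.40, limma adjusted p = 0.135). The tetraspanin Cd63 averaged 17.2 ± 1.56 FPKM with valine and 15.6 ± 1.38 FPKM in controls, and the calcium channel Mcoln1 3.87 ± 0.600 FPKM with valine and 4.36 ± 0.442 FPKM in controls.

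The transcription factors that drive lysosomal genes did not pass either, also not at an unadjusted limma p under 0.05. Tfeb (ENSMUSG00000023990) was at 2.23, 2.25, 3.25 and 2.29 FPKM in valine samples and at 2.30, 2.11, 2.72 and 2.16 FPKM in control samples. Replicate 3 was the highest sample of both groups. The log2 change of Tfeb was 0.07 (95% confidence interval -0.23 to 0.37, SE 0.130, limma adjusted p = 0.781) and became -0.01 with equal totals. Tfe3 (ENSMUSG00000000134) was at 4.03, 4.63, 4.26 and 5.12 FPKM in valine samples and at 5.68, 5.03, 4.43 and 4.57 FPKM in control samples. The groups overlapped, and the log2 change was -0.11 (95% confidence interval -0.35 to 0.14, SE 0.105, limma adjusted p = 0.580). Both proteins are controlled largely by phosphorylation and location in the cell, which RNA levels do not show.

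Progranulin and Tpp1 were both lower in every valine sample than in any control sample. Grn (ENSMUSG00000034708), a secreted glycoprotein that lysosomes cleave into granulins, was at 8.41, 8.47, 7.26 and 7.64 FPKM in valine samples and at 16.8, 12.9, 15.6 and 12.3 FPKM in control samples. It averaged 7.94 ± 0.589 FPKM with valine and 14.4 ± 2.12 FPKM in controls, and fell by 0.78 on the log2 scale (SE 0.108, limma adjusted p = 0.00633). Tpp1, a tripeptidyl peptidase, averaged 3.71 ± 0.270 FPKM with valine and 5.37 ± 1.05 FPKM in controls. Its log2 change of -0.42 missed the threshold (limma adjusted p = 0.0821), and it passed without control replicate 4 (adjusted p = 0.0435 in limma) and with equal totals (adjusted p = 0.0457 in limma).

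**Figure D4:**
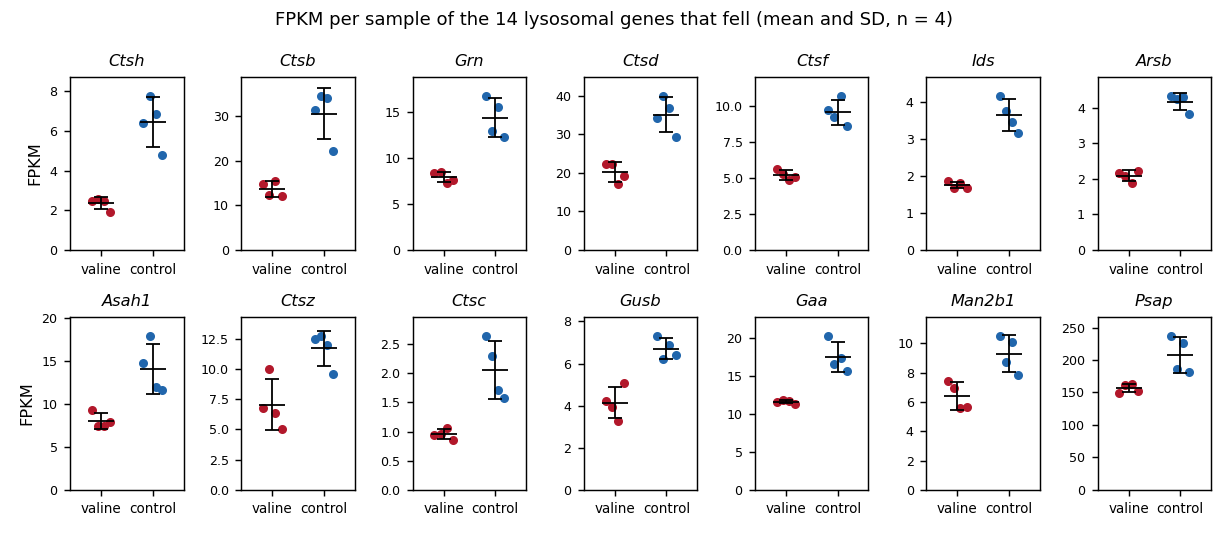
FPKM of the 14 lysosomal genes that fell, in each valine and control sample (points), with mean and SD (bars, n = 4 each), each panel on its own linear axis from 0. The valine samples lie below all control samples in 13 panels, and in the Ctsz panel valine replicate 2, at 10.01 FPKM, lies above control replicate 4, at 9.61 FPKM.

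Other lysosomal genes were taken from 5 lists of 102 genes, of which 93 were tested. Of these 13 fell and 6 rose, against 4.41% lower and 4.32% higher among all tested genes, with a median log2 change of -0.13. Without control replicate 1 or control replicate 2 the falls numbered 5, and 7 without valine replicate 1, valine replicate 2, valine replicate 4 or control replicate 3. The rises numbered 1 without valine replicate 1 or control replicate 1, and 2 without valine replicate 2, valine replicate 4, control replicate 2 or control replicate 3. Over all genes, 454 of 22066 were lower and 379 higher without control replicate 1, and 496 of 22114 lower and 413 higher without valine replicate 1. Of the calls in the 5 lists, 15 were lost in at least 1 alternative analysis. Those of Ctss, Atp6ap1 and Mtor were among the ones that held in all of them. Among 27 tested hydrolases, 5 fell and none rose (11 and 0 at an unadjusted limma p under 0.05). Ctss, the cathepsin typical of antigen-presenting cells, was at 2.26 ± 0.604 FPKM with valine and 8.39 ± 1.56 FPKM in controls (log2 change -1.53, SE 0.168, limma adjusted p = 0.00355). Its groups did not overlap. Scpep1, a serine carboxypeptidase, had a log2 change of -0.48 (SE 0.102, limma adjusted p = 0.0256).

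Of 20 tested membrane proteins of other lists, 4 fell and none rose (8 and 0 at an unadjusted limma p under 0.05). Npc1, the cholesterol exporter, and Abca2, a lipid transporter, each fell by 0.58 (limma adjusted p = 0.0223 and 0.0182), and the ion channels Tpcn1 and Tmem175 fell by 0.38 and 0.30 (limma adjusted p = 0.0304 and 0.0306). Without control replicate 1 none of these 4 passed. The V-ATPase is the pump that acidifies lysosomes and the acrosome. Of its 22 tested subunits and accessory genes 4 rose and 3 fell, against 4.32% and 4.41% of all tested genes. These counts were 0 and 6 with equal totals, 0 and 1 without valine replicate 1 or control replicate 1, 1 and 2 without valine replicate 4, and 1 and 1 without valine replicate 2, control replicate 2 or control replicate 3. The accessory gene Atp6ap1 fell by 0.65 (limma adjusted p = 0.0115) and the membrane subunit Atp6v0a2 by 0.35 (limma adjusted p = 0.0250). Atp6v1g1 and Atp6v1f, subunits of the catalytic sector, rose by 0.32 and 0.30 (limma adjusted p = 0.0320 and 0.0398), but with equal totals their changes were 0.21 and 0.18 and neither passed.

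None of the 12 genes of enzyme sorting passed in limma, and at an unadjusted p under 0.05 there were 2 lower and 1 higher. The smallest p-values were those of Vps26a, a retromer subunit (log2 change 0.17, limma adjusted p = 0.0590), and Gga2, a Golgi adaptor (log2 change -0.25, limma adjusted p = 0.121). Of 12 tested regulators of TFEB and TFE3, 1 fell and 2 rose, against 4.41% and 4.32% of all tested genes. Mtor, the kinase that keeps both factors in the cytoplasm, averaged 82.5 ± 2.68 FPKM with valine and 124.5 ± 5.02 FPKM in controls, without overlap, and fell by 0.59 (SE 0.0470, limma adjusted p = 0.00116). The calcineurin genes Ppp3r2 and Ppp3cc, both prominent in germ cells, rose by 0.34 and 0.18 (limma adjusted p = 0.00505 and 0.0388), and with equal totals Ppp3cc no longer passed (adjusted p = 0.347 in limma).

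Markers of several testis cell types moved with the lysosomal genes. Of 11 Leydig cell markers 10 fell, and their summed level was 510.7 to 823.9 FPKM in valine samples and 1676 to 2409 FPKM in control samples. Of 12 tested macrophage markers 6 fell, with sums over all 15 listed of 106.9 to 144.9 FPKM in valine samples and 161.8 to 235.4 FPKM in control samples. Lyz2, Csf1r and C1qa were among those that fell, whereas Adgre1 averaged 2.56 ± 0.359 FPKM with valine and 2.75 ± 0.476 FPKM in controls. The 6 not called were Adgre1, C1qb, Mrc1, Fcgr3, Tyrobp and Fcer1g, and the mean of Fcer1g was higher with valine. Fcgr3 was a large part of the macrophage sums, at 32.0 to 70.5 FPKM in valine samples and 24.9 to 87.8 FPKM in control samples. Of 17 tested markers of stroma, myoid and endothelial cells 8 fell. Sums over all 18 listed were 59.5 to 72.0 FPKM in valine samples and 117.0 to 159.2 FPKM in control samples. The sum of 159.2 FPKM was that of control replicate 1, and the other controls were at 117.0 to 118.2 FPKM. None of 12 Sertoli cell markers passed in limma, with 1 higher and 1 lower at an unadjusted p under 0.05 (sums 817.0 to 905.3 FPKM with valine and 807.0 to 931.0 FPKM in controls), and 9 of 12 spermatid markers rose (sums 57290 to 69540 FPKM with valine and 44970 to 47250 FPKM in controls). Of 12 spermatocyte markers 2 rose and 1 fell. Among all tested genes 4.32% were called higher and 4.41% lower.

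No listed marker of these types was at 0 in every sample. In RNA of whole testis, fewer cells of a type and less RNA per cell cannot be told apart, and the part of these cell types in the changes of the lysosomal genes was not tested. Of 6 tested fat markers 1 fell, Plin1. In 3 of the 6, Plin1, Cfd and Car3, every valine sample was below every control sample, a pattern found in 9.39% of all tested genes. Cfd was at 0 to 0.152 FPKM in valine samples and 0.325 to 29.8 FPKM in control samples. Car3 was at 0 to 0.196 FPKM in valine samples and 0.261 to 14.6 FPKM in control samples. Of 10 markers of the epididymis 1, Rnase10, passed the filter on low values and was not called, at 5.82 ± 2.45 FPKM with valine and 4.35 ± 3.42 FPKM in controls. Their sums were 5.04 to 9.93 FPKM with valine and 2.84 to 12.4 FPKM in controls, and Spint4 was at 0 in every sample. Crisp1 was at 5.06 FPKM in control replicate 1, against 0 to 0.191 FPKM in valine samples and 0.105 to 0.282 FPKM in the other controls.

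**Figure D5:**
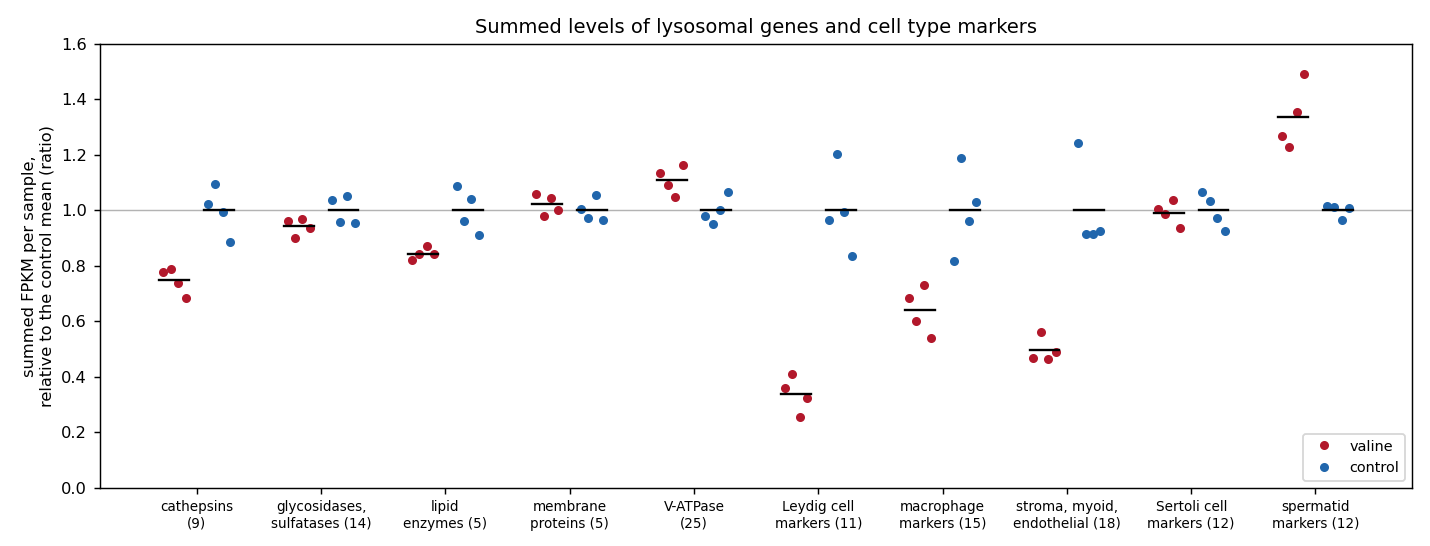
Summed FPKM of each gene group in each valine and control sample (points), divided by the control mean of that group (y axis, ratio), with the group means as bars; the number of genes summed is in the axis labels. Among the lysosomal groups the cathepsins and lipid enzymes lie lower in all 4 valine samples, the membrane proteins overlap, and among the cell type markers Leydig, macrophage and stromal sums lie lower and spermatid sums higher with valine.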

How the data were processed

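Testis RNA, extracted with Trizol and made into TruSeq libraries per the labels' protocols, gave the deposited table of FPKM values for 55414 Ensembl genes in 4 valine and 4 control samples. Reads were aligned by the authors with HISAT2 to GRCm39, per the submitters' processing notes. No source used here gives the quantifier, annotation release or strand setting. Reads of overlapping or antisense genes may therefore be shared. Columns were matched to samples by group and replicate number. No sample pair held identical values, and the labels give no batch. Low values moved in steps of whole fragments, which put the depth of each sample at 0.866 to 1.0 times that of control replicate 1; absolute depth was not derived.

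Ensembl IDs were matched to symbols in GENCODE vM21 and RefSeq GRCm38.p6 tables (52081 of 55414 named). Genes averaging 1 FPKM or more were tested as log2(FPKM + 1), with a pseudocount of 1, in limma 3.58.1 (R 4.3.3), with treatment as the only term, an empirical Bayes variance trend and two-sided p-values, adjusted by Benjamini-Hochberg over all 22077 genes at 0.05. Fold changes on this scale understate the change of low genes. The fit was tested on simulated data. Members and lists were chosen with earlier results of these data known. Genes past the threshold, the transcription factors and the most abundant gene of each role have full values; of other lists up to 4 past the threshold are named, except some results that are not reported here. Alternatives changed the pseudocount, filter, scaling, length trend, weights and block, and left out each replicate.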

Additional observations from a re-analysis of the deposited data

Results flagged for a closer look

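Each of the 74 groups of 4 samples, 1 for each lysosomal gene and treatment, was checked for a sample far from the other 3, and 3 groups held one; chance gives about 1 in 20. Smpd1 was at 4.49 FPKM in control replicate 1, against 3.23 to 3.43 FPKM in the other controls. Lamp2 was at 10.8 FPKM in valine replicate 3, against 12.8 to 13.1 FPKM in the other valine samples. Tfeb was at 3.25 FPKM in valine replicate 3, against 2.23 to 2.29 FPKM in the other valine samples.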

How the results depend on the processing

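The alternatives were a pseudocount of 0.1, no filter on low values, a filter at a mean of 5 FPKM, equal totals, quantile normalisation, removal of the length trend, sample weights, a replicate block, and leaving out each of the 8 samples. No lysosomal gene of the 37 was called higher in any of them. The lysosomal genes called lower numbered 14 in the main analysis, 10 to 18 in the alternatives with all samples and 8 to 15 with 1 sample left out. Their median log2 change was -0.49 with equal totals. Other lysosomal genes called higher, 6 in the main analysis, numbered 2 without the filter, 1 with equal totals, 1 with quantile normalisation and 1 to 5 with 1 sample left out. Those called lower, 13 in the main analysis, numbered 24 with equal totals, 7 with the length trend removed and 5 to 10 with 1 sample left out. Over all genes, 954 were higher in the main analysis, 568 without the filter, 363 with equal totals, 398 with quantile normalisation and 379 to 794 with 1 sample left out. Over all genes, 974 were lower in the main analysis, 2022 with equal totals and 454 to 793 with 1 sample left out.

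The labels give no pairing of samples, and none by replicate number was evident. Same-numbered samples had correlations of -0.017, -0.04, 0.104 and 0.111 in their deviations from the group means. Of 8 samples, 3 correlated best with their own number. With 4 samples per group these values cannot exclude pairing. With the replicate number as a block, 11 lysosomal genes and 5 other lysosomal genes were lower, and 581 genes were higher and 489 lower over all genes.

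Changes of sign occurred only in lysosomal genes that had not passed the test. With equal totals the log2 changes were -0.0854 for Hexa, -0.115 for Arsa, -0.0855 for Ppt1, -0.0722 for Lamp1 and -0.0118 for Tfeb. With quantile normalisation they were -0.0795 for Hexa, 0.0255 for Idua, -0.1197 for Arsa, -0.0791 for Ppt1 and -0.1151 for Lamp1. With the length trend removed they were 0.0715 for Ctsl, -0.0098 for Hexa, 0.0405 for Idua and 0.0177 for Tfe3, and with sample weights -0.0004 for Arsa. Leaving out 1 sample gave ranges of -0.1409 to 0.3787 for Ctsk, -0.0656 to 0.0093 for Ctsl, -0.1061 to 0.009 for Naglu, -0.0712 to 0.0679 for Idua, -0.0322 to 0.0439 for Arsa, -0.195 to 0.052 for Galns, -0.5454 to 0.1916 for Neu1 and -0.0247 to 0.1259 for Tfeb. The range of Ctsk comes from 4 of the 8 fits, as Ctsk missed the filter on low values in the others. The cause of these changes of sign was not tested. Depth limits the low genes most: Ctsk, Gla, Lipa and Ctsc lay near 1 to 2 FPKM.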
